A study of Mus musculus with 30 samples.

Results

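Microglia and astrocytes of the healthy mouse spinal cord were compared, gene by gene, in the libraries of naive mice. The genes described are the 11512 of 30952 in the deposited table whose mean log2 FPKM (fragments mapped to a gene, scaled to its exon length and to the size of the library) was at least 1 over the 8 naive libraries. Of these 11512 genes, 8065 had a mean of at least 1 in both cell types, 1604 in microglia alone and 1843 in astrocytes alone. The genes nearest the cutoff were Gm5113, just outside at a mean of 0.9994, and Ly6g6e, just inside at 1.0004.

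The series measured poly(A) RNA of the 2 glial types sorted from the spinal cords of 4 naive mice, 6 mice with experimental autoimmune encephalomyelitis (EAE) given vehicle and 5 EAE mice given the RIPK1 kinase inhibitor GSK'547, and its question was which genes depend on that kinase during disease. All mice were C57BL/6, and EAE was induced in females with the MOG35-55 peptide. The naive mice were neither immunized nor dosed as far as the labels say, and their age is not given. The 4 naive microglia libraries came from cells sorted as CD11b+CD45intCX3CR1+, and the 4 naive astrocyte libraries from cells sorted as GLAST+CD11b-CD45-CD140a-, so the astrocytes are those GLAST-positive cells that survived dissociation of the cord.

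Microglia are the resident macrophages of the central nervous system. They enter it from the yolk sac, depend on signaling through the CSF1 receptor, and survey the tissue with purinergic, Fc, complement and Toll-like receptors that feed a large lysosomal compartment. Astrocytes arise from neural progenitors, clear potassium and glutamate, carry water channels at their endfeet, are coupled by gap junctions, and supply lipids and matrix proteins to neurons.

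The 8 libraries separated by cell type. Across the 11512 genes, which are not independent replicates, Pearson's r was 0.695 to 0.915 between microglia libraries, 0.583 to 0.826 between astrocyte libraries and 0.199 to 0.300 between cell types. The libraries differed in how many genes they detected, from 8710 to 15639 in microglia and from 8815 to 22981 in astrocytes, and the median SD of a gene was 0.802 log2 units in microglia and 1.075 in astrocytes. Genes not detected in a library sit together at the bottom of its scale, with values from 0 up to 1.74, and are called genes without signal below. Every library was given the same set of values by quantile normalization, so a difference compares places in the order of genes. A value from this table cannot tell fewer cells of a type in a sort apart from less RNA per cell. Library depth is unknown, and p-values measure the spread between these libraries only.

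The sort genes were as labelled and are no finding. Itgam (CD11b) was at 7.12, 7.84, 7.84 and 8.52 in the microglia libraries and without signal in all 4 astrocyte libraries. Ptprc (CD45) was at 7.28 to 7.73 in microglia and at 2.44, 2.49, 0.00 and 0.00 in astrocytes. Slc1a3, which encodes GLAST, was at 6.04, 5.85, 6.23 and 5.07 in microglia and 7.61, 7.25, 7.27 and 7.18 in astrocytes, so that the gene of the protein used to collect astrocytes ranked high in microglia too. Pdgfra (CD140a) had no signal in microglia and reached at most 0.55 in astrocytes.

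A gene was called at an adjusted p under 0.05 (limma, Benjamini-Hochberg over the 29445 genes whose values varied) and a fold change over 1.5. Among the 11512 genes, 1223 were called higher in microglia and 1238 higher in astrocytes, while 9051 were not called. These counts hold nearly all calls of the table, in which 4.16% of the genes tested were called higher in microglia and 4.21% higher in astrocytes, 8.36% in either direction. Those shares include many genes under the cutoff of the mean, which were rarely called. Many genes of the lists below are among the 11512, so list counts are to be read beside 1223 and 1238 of 11512 too. A mean of at least 1 in both cell types was reached by 558 of the genes called in microglia and 483 of those called in astrocytes. The other called genes met the cutoff of the mean through the cell type where they were higher. Genes detected in every one of the 8 libraries made up 343 of the calls in microglia and 350 of those in astrocytes. A further 128 genes called in microglia had no signal in any astrocyte library, and 192 called in astrocytes had none in any microglia library. Of the 2461 genes called, 1365 are marked in the deposited annotation as confounded with another gene, which means that reads could be shared between them, and values of such genes carry that uncertainty.

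**Figure D1:**
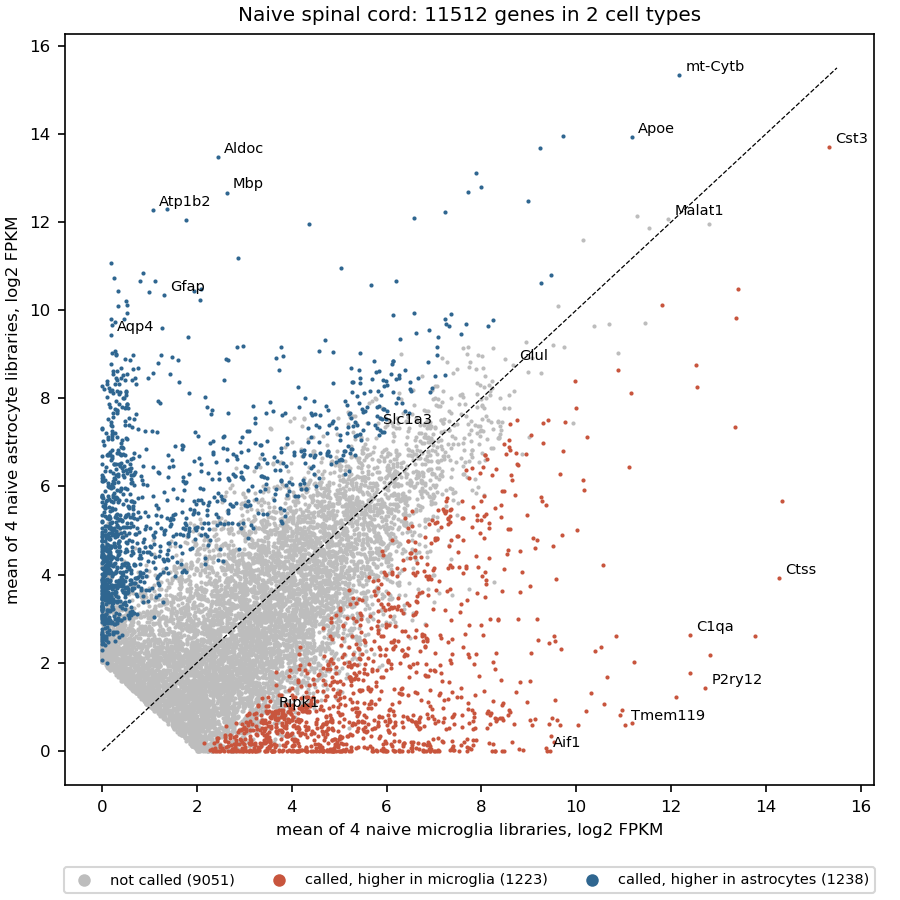
Each point is 1 of the 11512 genes, placed by its mean log2 FPKM over the 4 naive microglia libraries (x axis) and the 4 naive astrocyte libraries (y axis), in red where called higher in microglia (1223), in blue where called higher in astrocytes (1238) and in grey where not called (9051). The dashed line marks equal means, near which Glul and Malat1 lie, while Ctss and C1qa lie far to the right of it and Aldoc, Atp1b2 and Gfap far above it.

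The 20 microglia identity genes were all called higher in microglia, with a median difference of 8.94 log2 units beside -0.015 over all genes tested. The list includes the sort genes Itgam, Ptprc and Cx3cr1, whose calls are no finding. Csf1r, the receptor that microglia need to survive, was at 10.00, 11.14, 11.81 and 10.42 in microglia and at 0.84, 3.13, 3.01 and 3.47 in astrocytes. The groups were far apart, with a difference of 8.23 ± 0.647 (SE, n = 4 and 4), an adjusted p of 8.18e-05 (limma) and an exact two-sided permutation p of 0.0286, the smallest that 4 against 4 libraries allow. P2ry12, the ADP receptor that directs microglial processes, was at 12.87, 12.87, 12.02 and 13.12 in microglia, and at 0.00, 2.54, 0.04 and 3.08 in astrocytes, where 2 libraries had signal. Tmem119, a membrane protein that marks resident microglia, was at 10.34 to 11.73 in microglia and at 0.00, 2.13, 0.12 and 0.14 in astrocytes.

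Aif1, which encodes the actin-bundling protein IBA1, was at 9.37, 8.99, 9.01 and 10.16 in microglia and had no signal in any astrocyte library. Sall1, a transcription factor of microglial identity, showed the smallest gap of the list, at 4.69 to 6.26 in microglia and 0.92, 1.78, 3.88 and 2.66 in astrocytes, with a difference of 3.36 ± 0.668 (SE) and an adjusted p of 0.0148 (limma). Its call was lost without microglia replicate 1 (adjusted p = 0.0522), without microglia replicate 2 (0.052), and without microglia replicate 3 and astrocyte replicate 4 (0.0857). The mean level of the list ran from 9.99 to 10.43 across the microglia libraries and from 0.74 to 2.26 across the astrocyte libraries.

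Of the 20 astrocyte identity genes, which include the sort gene Slc1a3, 19 were called higher in astrocytes, with a median difference over the list of -8.53. Gfap, the intermediate filament of astrocytes, was at 10.46, 10.97, 9.83 and 10.13 in astrocytes and 0.23, 1.17, 1.68 and 2.11 in microglia. The difference was -9.05 ± 0.463 (SE) with an adjusted p of 9.3e-06 (limma). Aldoc, the aldolase isoform of brain glia, was at 12.87, 14.48, 12.87 and 13.71 in astrocytes and at 0.38, 1.33, 2.92 and 5.12 in microglia, which made it the gene with the widest spread in microglia among the largest differences. Sox9, an astroglial transcription factor, was at 6.70, 5.39, 6.74 and 6.61 in astrocytes and had signal in 1 microglia library, at 0.21.

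The exception was Glul, glutamine synthetase, which clears glutamate and ammonia and is widely used as an astrocyte protein marker. Glul was at 9.22, 8.62, 8.39 and 8.46 in microglia and 8.57, 8.85, 8.84 and 8.81 in astrocytes, and the libraries of the cell types overlapped. Its difference was -0.09 ± 0.267 (SE) with an adjusted p of 0.927 (limma). Slc1a3 had the smallest difference of the called genes of this list, -1.53 ± 0.319 (SE, adjusted p = 0.0186, limma), and lost its call without microglia replicate 2, astrocyte replicate 1 or astrocyte replicate 3 (adjusted p = 0.0534 to 0.0586) and without microglia replicate 3 and astrocyte replicate 4 (0.0612).

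**Figure D2:**
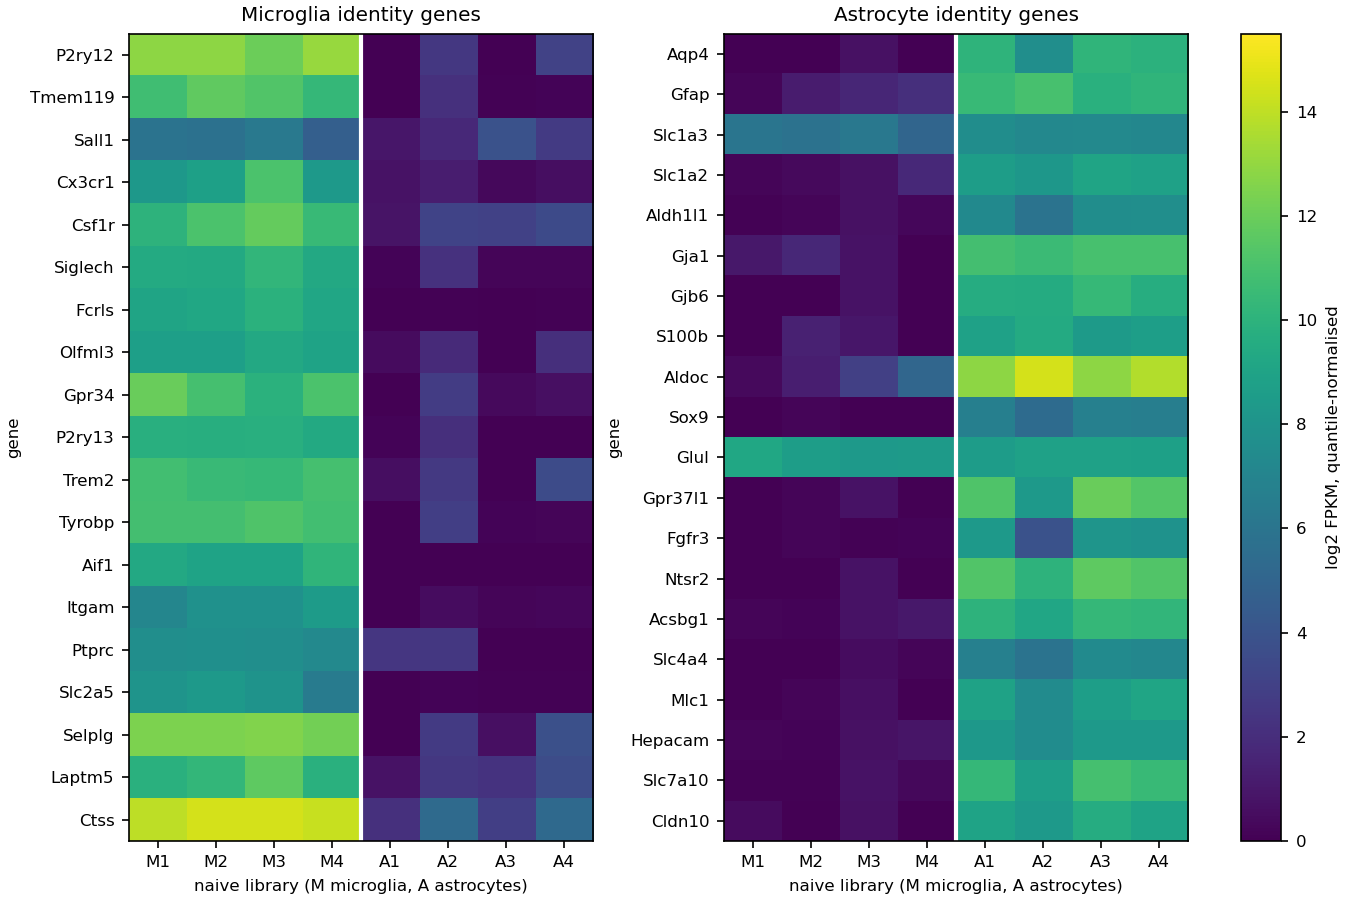
The colour gives the log2 FPKM of 19 microglia identity genes (left) and each astrocyte identity gene (right) in each of the 8 naive libraries, M1 to M4 from microglia and A1 to A4 from astrocytes. The blocks of high values stand on opposite sides, with exceptions. Slc1a3 (5.07 to 6.23) and Glul (8.39 to 9.22) are well above 0 in each microglia library as well. In single libraries, so are Aldoc in M4 (5.12) and Ctss in A2 (5.36) and A4 (5.31).

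Among genes with signal in all 8 libraries, the widest differences toward microglia included those of Ctss, C1qa, Arhgdib, Csf1r, Laptm5, Itpripl1, Anxa3, Ctsc and Lair1. They ranged from 10.35 ± 0.737 (SE) for Ctss, the protease cathepsin S, to 6.83 ± 0.506 for Lair1, an inhibitory collagen receptor. Ctss was at 13.93, 14.48, 14.48 and 14.20 in microglia and at 2.17, 5.36, 2.85 and 5.31 in astrocytes. Arhgdib, a regulator of small GTPases in blood cells, was at 9.37 to 9.68 in microglia and 0.04 to 2.67 in astrocytes. Of these genes, Ctss, Arhgdib, Csf1r, Anxa3 and Ctsc are marked as confounded with another gene.

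Toward astrocytes the widest were Atp1b2, Aldoc, Sparcl1, Ndrg2, Mbp, Gfap, Pla2g7, Gstm1, Mobp and Slc1a2. Atp1b2, the glial beta subunit of the sodium pump, was at 11.57, 11.93, 12.70 and 12.87 in astrocytes and 0.27, 0.89, 0.95 and 2.16 in microglia, a difference of -11.20 ± 0.478 (SE, adjusted p = 4.1e-06, limma). Sparcl1, also called hevin, a secreted protein that organises synapses, was at 12.10 to 12.70 in astrocytes and 0.23 to 2.19 in microglia. Ndrg2 was at 11.81 to 12.43 in astrocytes and 1.33 to 2.23 in microglia. Mbp and Mobp, in the same group, are myelin genes of oligodendrocytes and are taken up with the other oligodendrocyte markers. Sparcl1, Mbp, Gfap, Pla2g7, Mobp and Slc1a2 are marked as confounded with another gene.

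Some genes were high in one cell type and without signal in all 4 libraries of the other. In microglia, the highest of these were Otulinl at 8.69 to 9.86, Aif1, AC102342.2 at 8.15 to 8.71, Cd300c2 at 8.13 to 8.47, Ptpn6 at 7.85 to 8.74, Gna15 at 7.94 to 8.50, Nupr1 at 6.54 to 9.08 and Itgam. Itgam is a sort gene, and its place here is no finding. Ptpn6 encodes the phosphatase SHP-1 of inhibitory receptors, and Gna15 a G protein subunit of blood cells. In astrocytes they were Scrg1 at 8.06 to 8.80, Omg at 8.17 to 8.42, Nkain4 at 8.11 to 8.34, Tril at 6.04 to 8.37, Cystm1 at 7.02 to 7.53, Csdc2 at 6.01 to 8.00, Mfsd2a at 4.32 to 8.63 and Apln at 5.77 to 7.84. The astrocyte libraries also carried oligodendrocyte and neuron markers, taken up below, and the part of such cells in these values was not tested. Tril is an accessory protein of Toll-like receptors, and Apln encodes the peptide ligand apelin. Astrocyte replicate 2 was the lowest of its group for Tril, Csdc2, Mfsd2a and Apln. AC102342.2, Ptpn6, Gna15, Itgam, Omg, Nkain4 and Tril are marked as confounded with another gene. Since an undetected gene can also be a failed estimate, no fold change is given for these genes.

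Of 18 myeloid transcription factors, 15 were called higher in microglia and none higher in astrocytes, with a median difference of 4.70. Spi1, which encodes PU.1, the ETS factor that myeloid cells require, was at 7.09, 7.59, 8.22 and 6.63 in microglia, and had signal in 1 of 4 astrocyte libraries, at values of 0.02 to 0.12. Irf8, a partner of PU.1, was at 7.24 to 8.12 in microglia and 0.19, 2.56, 0.27 and 0.39 in astrocytes. Sall3, Cebpb and Etv5 were not called, with adjusted p of 0.331, 0.0749 and 0.648 (limma).

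Since PU.1 and other factors act at promoters, the windows from 250 bases before to 50 bases after the annotated start of each gene (RefSeq, GRCm38.p6, 300 bases) were searched for short motifs on both strands. A gene with several annotated starts has a window at each, and it was counted once, as holding a motif where any of its windows did. A window was found for 928 of the 1223 genes called in microglia, 936 of the 1238 called in astrocytes and 6911 of the 9051 not called. The PU.1 core searched was GAGGAAGT, which contains the shorter ETS core GGAA. It was present in 88 (9.48%) of the genes called in microglia, 14 (1.5%) of those called in astrocytes, 242 (3.5%) of those not called, and 3.69% of all 27025 genes with a window. Counted over single windows, it was in 94 of 1260 (7.46%), 14 of 1302 (1.08%) and 257 of 8787 (2.92%), and in 3.2% of all windows. GGAA alone was in 97.63%, 95.09% and 96.47% of the genes of those groups, so the short core did not set them apart. The site of interferon regulatory factors (IRF) was in 5.93%, 3.21% and 3.43%, with 3.99% over all genes.

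The windows of 5 genes called in microglia that hold the PU.1 core are printed 5′ to 3′ on the strand of the gene, with the core in capitals (ACTTCCTC where it lies on the opposite strand), to show where it stands relative to the start, which follows base 250. Ctss, Ctsc and Itpripl1 are among the 10 widest differences, and Inpp5d and Vav1 are signaling proteins below Fc receptors. The windows are chr3:95526536-95526835 (plus strand) for Ctss, chr7:88277835-88278134 (plus) for Ctsc, chr2:127142541-127142840 (minus) for Itpripl1, chr1:87620062-87620361 (plus) for Inpp5d and chr17:57278850-57279149 (plus) for Vav1, each spanning the upstream sequence and the first bases of the transcript.
Ctss: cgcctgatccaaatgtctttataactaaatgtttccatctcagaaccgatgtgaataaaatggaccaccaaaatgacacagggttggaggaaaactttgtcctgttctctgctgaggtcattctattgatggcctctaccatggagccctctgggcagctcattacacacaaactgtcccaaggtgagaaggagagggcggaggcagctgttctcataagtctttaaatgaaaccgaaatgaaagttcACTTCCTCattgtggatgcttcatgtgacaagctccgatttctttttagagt
Ctsc: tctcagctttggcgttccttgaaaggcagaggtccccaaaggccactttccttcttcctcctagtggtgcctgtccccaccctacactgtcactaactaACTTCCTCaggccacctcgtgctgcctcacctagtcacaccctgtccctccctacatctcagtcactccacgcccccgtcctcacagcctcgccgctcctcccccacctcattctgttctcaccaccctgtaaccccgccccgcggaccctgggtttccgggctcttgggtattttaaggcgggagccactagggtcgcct
Itpripl1: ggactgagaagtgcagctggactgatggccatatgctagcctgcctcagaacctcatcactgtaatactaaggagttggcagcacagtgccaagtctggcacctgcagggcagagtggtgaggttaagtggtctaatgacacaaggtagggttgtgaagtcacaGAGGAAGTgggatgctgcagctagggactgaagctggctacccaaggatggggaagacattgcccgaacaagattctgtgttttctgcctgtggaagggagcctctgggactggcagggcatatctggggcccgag
Inpp5d: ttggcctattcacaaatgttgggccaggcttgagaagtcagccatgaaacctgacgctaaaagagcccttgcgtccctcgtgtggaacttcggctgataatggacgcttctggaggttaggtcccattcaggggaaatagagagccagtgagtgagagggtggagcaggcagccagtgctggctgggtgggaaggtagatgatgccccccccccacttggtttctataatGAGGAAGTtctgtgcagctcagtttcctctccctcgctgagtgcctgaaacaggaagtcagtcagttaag
Vav1: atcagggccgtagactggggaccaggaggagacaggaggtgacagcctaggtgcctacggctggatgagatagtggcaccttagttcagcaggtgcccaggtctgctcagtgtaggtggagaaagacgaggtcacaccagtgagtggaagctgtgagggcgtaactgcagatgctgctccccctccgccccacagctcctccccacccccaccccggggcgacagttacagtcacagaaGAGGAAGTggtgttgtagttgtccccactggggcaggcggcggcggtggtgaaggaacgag
The core began 2 bases before the start in Ctss, 11 before it in Vav1, 20 in Inpp5d, 86 in Itpripl1 and 151 in Ctsc. Itpripl1 has 2 windows, and the core is in the one printed, at an inner start of the gene, and not in that at its outer start (chr2:127143408-127143707), while the other printed genes have 1 window each. The Ctss window also holds the IRF motif, which begins 21 bases before the start. A match is a description of the letters and says nothing of binding.

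Other motifs searched differed between the groups as well. CREB (TGACGTCA) was in 2.16% of the genes called in microglia, 2.99% of those called in astrocytes and 4.05% of those not called, with 2.03% over all genes. SOX (CATTGTT) was in 2.69%, 2.14% and 2.27%, with 4.33% over all. The E-box CATCTG was in 17.03%, 17.63% and 12.5%, with 19.23% over all, and CCAAT in 39.98%, 47.54% and 43.22%, with 41.06% over all. The nuclear factor I site was in 2 genes called in astrocytes and in none called in microglia. Median GC content was 58.33%, 60.58% and 61.0% in these groups and 52.75% over all genes, and the part of base composition in these shares was not tested.

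Of 23 astroglial transcription factors, 8 were called higher in astrocytes and 15 were not called, with a median difference of -1.72. The 8 were Sox9, Nfib, Id1, Id2, Id3, Id4, Rorb and Olig2. Id1 was not called without microglia replicate 1, 2 or 4, or without astrocyte replicate 3 or 4 (adjusted p = 0.0555 to 0.0766). Nfib, a nuclear factor I gene of gliogenesis, was at 5.16, 5.10, 4.83 and 4.56 in astrocytes and 0.31, 0.45, 0.07 and 0.14 in microglia. Id2 was high in both cell types, at 6.55 to 8.44 in microglia and 9.08 to 10.06 in astrocytes, with a difference of -2.45 ± 0.462 (SE, adjusted p = 0.0112, limma). Olig2, a factor of the oligodendrocyte lineage and of ventral spinal progenitors, was at 4.71, 4.40, 5.35 and 4.17 in astrocytes without signal in microglia.

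Nfia was not called, at 3.23 to 5.01 in microglia and 4.82 to 6.47 in astrocytes (adjusted p = 0.407, limma). Of the forebrain factors of the list, Emx2 had signal in 1 astrocyte library and Lhx2 in none. Sox2 was at 3.47, 5.23, 3.12 and 1.26 in astrocytes and at most 0.54 in microglia, with an adjusted p of 0.0544 (limma).

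Hox genes, which encode position along the body axis in neural tissue, were detected mostly in astrocyte libraries. Of 32, 6 were called higher in astrocytes and 26 were not called. Signal was found for 4, 5, 3 and 0 of them in the microglia libraries and for 27, 12, 20 and 20 in the astrocyte libraries. In all, 22 had no signal in any microglia library beside 2 in any astrocyte library. The lower count leans on astrocyte replicate 1, which detected 22981 genes, the most of the 8 libraries. Hoxa7 was at 5.64, 4.72, 5.10 and 5.57 in astrocytes and 0.07, 0.65, 0.54 and 0.24 in microglia. Hoxc8 was at 4.73, 3.53, 4.62 and 5.37 in astrocytes and had signal in 1 microglia library, at 0.24. Hoxa9, Hoxb5, Hoxb6 and Hoxc5 were the others, with adjusted p of 0.00111, 0.0405, 0.00581 and 0.00978 (limma). The call of Hoxb5 was lost in 7 of the 8 fits that each left out 1 library, all but that without astrocyte replicate 3 (adjusted p = 0.0784 to 0.126), and Hoxb5, Hoxb6 and Hoxc5 were not called without microglia replicate 3 and astrocyte replicate 4. All 6 are marked as confounded with another gene, as Hox genes overlap in their clusters. The fit that left out such genes did not test these 6, so it cannot speak to their calls, and it called no other Hox gene.

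Among 19 complement genes, 9 were called higher in microglia. C1qa, C1qb and C1qc, the chains of the first component, were among the highest genes of microglia, at 12.02 to 13.12, 13.51 to 13.93 and 12.70 to 13.01. In astrocytes C1qa was at 0.71, 2.82, 2.22 and 4.78, C1qb at 0.00, 2.99, 2.13 and 5.33, and C1qc at 2.54, 2.75, 0.08 and 3.32. The receptors C3ar1, C5ar1 and C5ar2 and the integrins Itgam, a sort gene, and Itgb2 were also called in microglia. C3 was at 0.00, 0.79, 3.20 and 1.79 in microglia and had signal in 1 astrocyte library (0.62), and was not called. Cd59a, which blocks the membrane attack complex, was the gene called the other way, at 3.40 to 3.93 in astrocytes and 1.83, 0.00, 0.77 and 0.07 in microglia (adjusted p = 0.00788, limma), and its call was lost without microglia replicate 3 and astrocyte replicate 4.

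In Fc receptor and ITAM signaling, 17 of 18 genes were called higher in microglia, with a median difference of 6.82. Fcgr3, a low-affinity IgG receptor, was at 12.32, 12.32, 11.38 and 12.43 in microglia and 0.03, 2.53, 0.00 and 2.33 in astrocytes. Tyrobp and Trem2, an adaptor and the lipid receptor that signals through it, were at 10.79 to 11.25 and 10.38 to 10.92 in microglia. Downstream, the kinases Syk, Lyn and Btk, the phospholipase Plcg2, the phosphatases Inpp5d and Ptpn6, and Vav1 were all called. Inpp5d was at 6.85, 7.58, 8.27 and 6.82 in microglia and 0.09, 0.00, 0.00 and 0.85 in astrocytes, and Vav1 at 6.61 to 7.05 in microglia with no signal in astrocytes. Fgr, at 0.79, 1.92, 2.78 and 4.03 in microglia, was not called (adjusted p = 0.125, limma).

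Among Toll-like receptors and their adaptors, 12 of 20 genes were called higher in microglia, with a median difference of 3.35. Cd14, the co-receptor for lipopolysaccharide, was at 9.16 to 9.92 in microglia and at most 0.76 in astrocytes. Tlr7, which senses single-stranded RNA, was at 6.69 to 7.05 in microglia without signal in astrocytes, and Unc93b1, which carries such receptors to endosomes, was at 8.76 to 10.16 in microglia. Tlr2 was detected in both cell types, at 5.06, 6.13, 5.67 and 6.37 in microglia and 2.23, 4.63, 2.59 and 3.22 in astrocytes, and was called (2.64 ± 0.574 SE, adjusted p = 0.0226, limma). That call was lost in 6 of the 8 fits that each left out 1 library (adjusted p = 0.0539 to 0.0786) and was kept without microglia replicate 1 and without astrocyte replicate 2. Tlr3, the receptor for double-stranded RNA, was at 4.78, 5.09, 4.42 and 0.64 in microglia and 5.06, 4.27, 5.34 and 4.81 in astrocytes and was not called. The adaptor Myd88 was not called either, at 4.72 to 6.17 against 1.22 to 4.07 (adjusted p = 0.0915, limma).

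Purinergic and chemotactic receptors split by member. Of 20 genes, 12 were called higher in microglia and 4 higher in astrocytes. Besides P2ry12, the ADP receptor P2ry13 was at 9.43 to 9.77, the UDP receptor P2ry6 at 7.31 to 9.09 and the adenosine receptor Adora3 at 6.05 to 6.85 in microglia. In astrocytes, P2ry1 was at 4.75, 1.90, 6.13 and 4.93, Adora1 at 6.49, 6.04, 6.37 and 6.33, and Adora2b at 6.78, 2.20, 6.97 and 6.69, of which only Adora1 had any signal in microglia, at up to 0.49. The enzymes that split extracellular ATP were also divided. Entpd1 (CD39) was at 8.23, 8.71, 8.66 and 8.25 in microglia and 1.64, 0.04, 2.60 and 0.02 in astrocytes, while Entpd2 was at 7.12, 2.61, 7.70 and 7.44 in astrocytes without signal in microglia. Without microglia replicate 3 and astrocyte replicate 4, 1 of these 4 calls in astrocytes was left, and astrocyte replicate 2 was the lowest for P2ry1, Adora2b and Entpd2.

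The lysosome list had 14 of 24 genes called higher in microglia and none higher in astrocytes, with a median difference of 3.12. Besides Ctss, Lgmn, an asparaginyl protease, was at 12.43 to 13.71 in microglia and 6.11 to 8.20 in astrocytes. Ctsd, the main aspartic protease of lysosomes, was at 11.81, 12.55, 13.71 and 12.10 in microglia and 8.83, 6.38, 9.07 and 8.75 in astrocytes (4.28 ± 0.671 SE, adjusted p = 0.00424, limma). Cst3, the secreted inhibitor cystatin C, held the top value of the table, 15.34, in all 4 microglia libraries and was at 13.32, 13.12, 14.20 and 14.20 in astrocytes. Every library has that top value, so a gene at it cannot rank higher. Cst3 was not called without microglia replicate 2 or 4, or without astrocyte replicate 1 or 2 (adjusted p = 0.0503 to 0.187, limma). The call was also lost with no-signal values set to 0 (0.482). Among the 10 lysosomal genes not called, Lamp1 was at 8.98 to 9.60 and 7.71 to 9.05, Ctsl at 7.95 to 8.76 and 6.41 to 7.84, and Psap at 6.96 to 8.96 and 6.15 to 7.81, in microglia and astrocytes in that order.

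Of 20 NADPH oxidase and phagosome genes, 15 were called higher in microglia. Cyba, a membrane subunit of the oxidase, was at 10.06 to 11.04 in microglia and 0.09, 4.73, 4.16 and 0.40 in astrocytes. The cytosolic subunits Ncf1 and Ncf4 were at 6.23 to 7.82 and 6.40 to 7.19 in microglia, whereas Cybb, the catalytic subunit, was at 3.05, 2.23, 2.34 and 1.31 and was not called (adjusted p = 0.171, limma). The actin regulators Coro1a, Nckap1l, Dock2 and Dock8 of blood cells were called.

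For antigen presentation, 11 of 18 genes were called higher in microglia. B2m, the invariant chain of class I molecules, was at 12.55, 12.70, 12.32 and 12.55 in microglia and 8.95, 8.26, 8.82 and 8.99 in astrocytes, a difference of 3.78 ± 0.264 (SE, adjusted p = 4.23e-05, limma). H2-K1 differed by less, 1.51 ± 0.311 (adjusted p = 0.0176), at 8.24 to 9.07 and 6.58 to 7.36, and was not called without microglia replicate 2 or astrocyte replicate 1 (0.0538 and 0.0596). The class II chaperone Cd74 was at 6.52 to 7.55 in microglia and had signal in 1 astrocyte library, at 3.19. H2-Aa, a class II chain, stayed between 0.36 and 2.36 in microglia and was not called, and its activator Ciita was at 0.25 or below there. The count fell to 7 without microglia replicate 2, and to 7 without microglia replicate 3 and astrocyte replicate 4.

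Among 23 cytokine and chemokine genes, 7 were called higher in microglia (Il1a, Tnf, Ccl3, Ccl4, Ccl6, Ccl9 and Cxcl16) and 3 higher in astrocytes (Il33, Cxcl14 and Cx3cl1). Il1a was at 6.05, 7.79, 5.92 and 6.94 in microglia without signal in astrocytes. Tnf was at 3.39, 6.07, 3.43 and 3.62 and Ccl4 at 6.33, 9.14, 7.23 and 8.05 in microglia, neither with signal in astrocytes, and microglia replicate 2 was the highest for Il1a, Tnf, Ccl3 and Ccl4. The alarmin Il33 was at 7.45, 7.03, 6.70 and 7.55 in astrocytes and 0.23, 0.00, 0.58 and 0.04 in microglia. Cxcl14 was at 6.96 to 8.87 in astrocytes and 1.43, 0.00, 0.57 and 0.00 in microglia. The call of Cx3cl1 was lost in 7 of the 8 fits without 1 library, all but that without astrocyte replicate 2 (adjusted p = 0.0585 to 0.107).

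Of 18 dissociation and immediate early genes, 13 were called higher in microglia, with a median difference of 3.84, and they stood highest in the same replicate. Fos was at 7.81, 10.13, 8.08 and 7.77 in microglia and 0.83, 2.75, 0.55 and 0.00 in astrocytes, and Dusp1, a phosphatase induced by stress, at 7.97, 10.97, 7.43 and 7.89 in microglia and 4.48 to 5.98 in astrocytes. Dusp1 was not called without astrocyte replicate 1, 2 or 3 (adjusted p = 0.054 to 0.0682). The mean of the list was 4.89, 6.91, 5.17 and 5.00 in the microglia libraries and 0.78 to 1.59 in the astrocyte libraries. The part of cell isolation in the levels of Tnf, Ccl3, Ccl4 and Il1a was not tested. Without microglia replicate 2, 8 of the 23 cytokine and chemokine genes were called higher in microglia.

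Ligands and receptors that could link the cell types were measured as pairs. Of 26 genes, 12 were called higher in microglia and 3 higher in astrocytes. Without astrocyte replicate 2, 5 were called higher in astrocytes. Cx3cl1, whose call was lost in 7 of 8 fits without 1 library, was at 4.55, 1.93, 5.12 and 3.08 in astrocytes and its receptor Cx3cr1, a sort gene, at 8.25 to 11.14 in microglia. Tgfbr1 and Tgfbr2, the receptors of transforming growth factor beta, were at 8.11 to 8.80 and 5.22 to 6.21 in microglia, while the ligands Tgfb1, Tgfb2 and Tgfb3 were not called in either direction. Csf1 was at 0.30, 3.02, 2.23 and 0.12 in microglia and 2.83, 0.11, 4.07 and 4.15 in astrocytes and was not called, and Il34, the other ligand of Csf1r, had signal in 1 astrocyte library. The phagocytic receptors of one family stood on opposite sides: Mertk was at 6.45 to 6.96 in microglia and 2.77 to 4.92 in astrocytes (3.12 ± 0.485 SE, adjusted p = 0.00403, limma), and Axl at 2.89 to 4.20 and 5.82 to 6.64 (-2.71 ± 0.376, adjusted p = 0.00215). Their ligand Pros1 was higher in microglia by 4.29 ± 0.415 (SE, adjusted p = 0.000257), and Gas6 was not called.

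In the RIPK1 and necroptosis pathway, the subject of the series, 6 of 22 genes were called higher in microglia and none higher in astrocytes, with a median difference of 1.37. Ripk1, the kinase itself, was at 4.15, 3.65, 2.51 and 4.05 in microglia and 0.06, 2.21, 1.3 and 0.00 in astrocytes. The libraries did not overlap, as in 12.9% of all genes tested, and the difference was 2.70 ± 0.667 (SE, adjusted p = 0.0418, limma). Its partner Ripk3 was at 2.99, 1.48, 2.62 and 0.00 in microglia without signal in astrocytes and was not called (adjusted p = 0.23), and Mlkl, the executor of necroptosis, had no signal in any of the 8 libraries. Casp8, which cleaves RIPK1, was at 7.36, 7.09, 6.41 and 5.85 in microglia and 1.45, 0.00, 0.57 and 0.00 in astrocytes.

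Of the receptors for tumour necrosis factor, Tnfrsf1b was at 4.27, 5.80, 6.26 and 5.80 in microglia without signal in astrocytes, and Tnfrsf1a was at 4.89, 5.55, 6.24 and 5.22 in microglia and 5.03 to 5.24 in astrocytes and was not called (adjusted p = 0.634, limma). Birc3, Cflar and Tnfaip3, inhibitors in the pathway, were the other calls, of which Birc3 was lost in 5 and Cflar in 7 of the 8 fits without 1 library, both among them without microglia replicate 1 or 2 and without astrocyte replicate 1, 3 or 4. The count fell to 3 of 22 without microglia replicate 1, without microglia replicate 2, without astrocyte replicate 3, or without microglia replicate 3 and astrocyte replicate 4. The call of Ripk1 was lost in 6 of the 8 fits that each left out 1 library and was kept without microglia replicate 3 and without astrocyte replicate 2.

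Ion, water and transmitter handling was on the astrocyte side, with 14 of 20 genes called higher in astrocytes and a median difference of -6.99. Aqp4, the water channel, was at 10.06, 7.64, 10.13 and 9.95 in astrocytes and at most 0.72 in microglia. Kcnj10, the potassium channel Kir4.1, was at 7.43 to 8.43 in astrocytes, the connexins Gja1 and Gjb6 at 10.57 to 10.97 and 9.56 to 10.38, and the GABA transporter Slc6a11 at 4.80 to 8.94. Slc12a2, a sodium, potassium and chloride cotransporter, went the other way, at 4.39, 3.08, 2.51 and 3.88 in microglia and 0.02, 0.03, 1.5 and 0.01 in astrocytes (adjusted p = 0.0156, limma), and was no longer called without microglia replicate 1, without microglia replicate 3 and astrocyte replicate 4, or without microglia replicate 4 and astrocyte replicate 2.

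For cholesterol synthesis and lipid transport, 16 of 25 genes were called higher in astrocytes, with a median difference of -3.12. The calls ran along the pathway, among them Hmgcs1, Mvk, Idi1, Fdft1, Sqle, Lss, Cyp51, Msmo1 and Dhcr7. The call of Dhcr7 was lost in 6 of the 8 fits without 1 library and kept without microglia replicate 1 and without astrocyte replicate 2 (adjusted p where lost = 0.0575 to 0.0983). Sqle, squalene epoxidase, was at 6.90, 5.08, 6.45 and 6.55 in astrocytes and 0.38, 0.44, 2.49 and 0.00 in microglia. Insig1, which senses sterol, was at 6.65 to 7.51 in astrocytes and 3.14 to 4.59 in microglia (-3.20 ± 0.389 SE, adjusted p = 0.001, limma). Apoe, the main lipid carrier of the brain, was very high in both, at 13.71, 13.01, 14.48 and 14.48 in astrocytes and 10.27, 11.32, 11.48 and 11.64 in microglia, and differed by -2.75 ± 0.457 (SE, adjusted p = 0.00589, limma). Abcg1, a sterol exporter, and Lpl, a lipase, were the 2 genes called higher in microglia, and 1 call of the 2 was left without microglia replicate 2. Abca1 was not called, at 3.32 to 4.00 and 2.09 to 3.50.

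Among extracellular matrix and synapse-organising proteins, 14 of 23 genes were called higher in astrocytes. Bcan and Ncan, proteoglycans of the perineuronal matrix, were at 7.00 to 9.36 and 6.60 to 7.38 in astrocytes and at most 0.70 in microglia. Sparcl1, described above, and the glypican Gpc5 (7.59 to 7.93 in astrocytes) belonged to the same group. Sparc, which acts against Sparcl1 at synapses, was abundant in both, at 9.89 to 10.73 in microglia and 11.64, 10.52, 12.02 and 12.23 in astrocytes, and was not called (-1.45 ± 0.421 SE, adjusted p = 0.0838, limma). Timp2 was at 4.29 to 5.51 in microglia and 1.20 to 5.41 in astrocytes and was not called, whereas Timp3 and Timp4 were called in astrocytes.

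In Notch, FGF, BMP and hedgehog signaling, 8 of 22 genes were called higher in astrocytes and none higher in microglia, where 1 was called without microglia replicate 3. They were Hey1, Fgfr1, Fgfr2, Fgfr3, Bmpr1b, Ptch1, Gli3 and Lfng. Fgfr1 was lost in 6 of the 8 fits without 1 library, all but those without microglia replicate 4 and without astrocyte replicate 2 (adjusted p = 0.0558 to 0.0786). Lfng was lost without microglia replicate 1 and without astrocyte replicate 1, 3 or 4 (0.0559 to 0.0609). Fgfr3 was at 8.39, 3.91, 8.09 and 7.93 in astrocytes and Hey1 at 5.22 to 5.86, each with signal in 1 microglia library. Notch2, at 4.64 to 6.49 in microglia and 3.70 to 4.52 in astrocytes, was not called (adjusted p = 0.102, limma).

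Of 19 enzymes of serine, glycine, folate and methyl-group metabolism, 6 were called higher in astrocytes. Cbs, cystathionine beta-synthase, was at 6.74, 6.21, 6.70 and 7.23 in astrocytes with signal in 1 microglia library at 0.62, and Aldh1l1, the folate dehydrogenase used as an astrocyte marker, was at 5.88 to 7.68. Phgdh, the first enzyme of serine synthesis, was at 4.91, 5.11, 5.59 and 3.00 in microglia and 6.78, 2.74, 6.27 and 7.32 in astrocytes and was not called (adjusted p = 0.603, limma), while Psat1, the next, was called (-4.00 ± 0.784 SE, adjusted p = 0.0137). Without microglia replicate 3 and astrocyte replicate 4, 3 of the 6 were called.

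Transcripts of the mitochondrial genome were higher in astrocytes for 10 of 13 genes, with a median difference of -3.73. mt-Cytb held the top value, 15.34, in all 4 astrocyte libraries and was at 13.01, 12.10, 10.57 and 13.01 in microglia. Its call was lost with no-signal values set to 0 (adjusted p = 0.0847, limma). mt-Nd4 was at 12.23 to 13.12 in astrocytes and 7.27 to 8.10 in microglia, a difference of -4.98 ± 0.302 (SE, adjusted p = 2.03e-05, limma). mt-Nd4l had no signal in any microglia library, which for a gene of this genome can be a failed estimate, and mt-Nd3, mt-Nd4l and mt-Co3 were not called. All but 2 of the 10 called genes are marked as confounded with another gene.

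**Figure D3:**
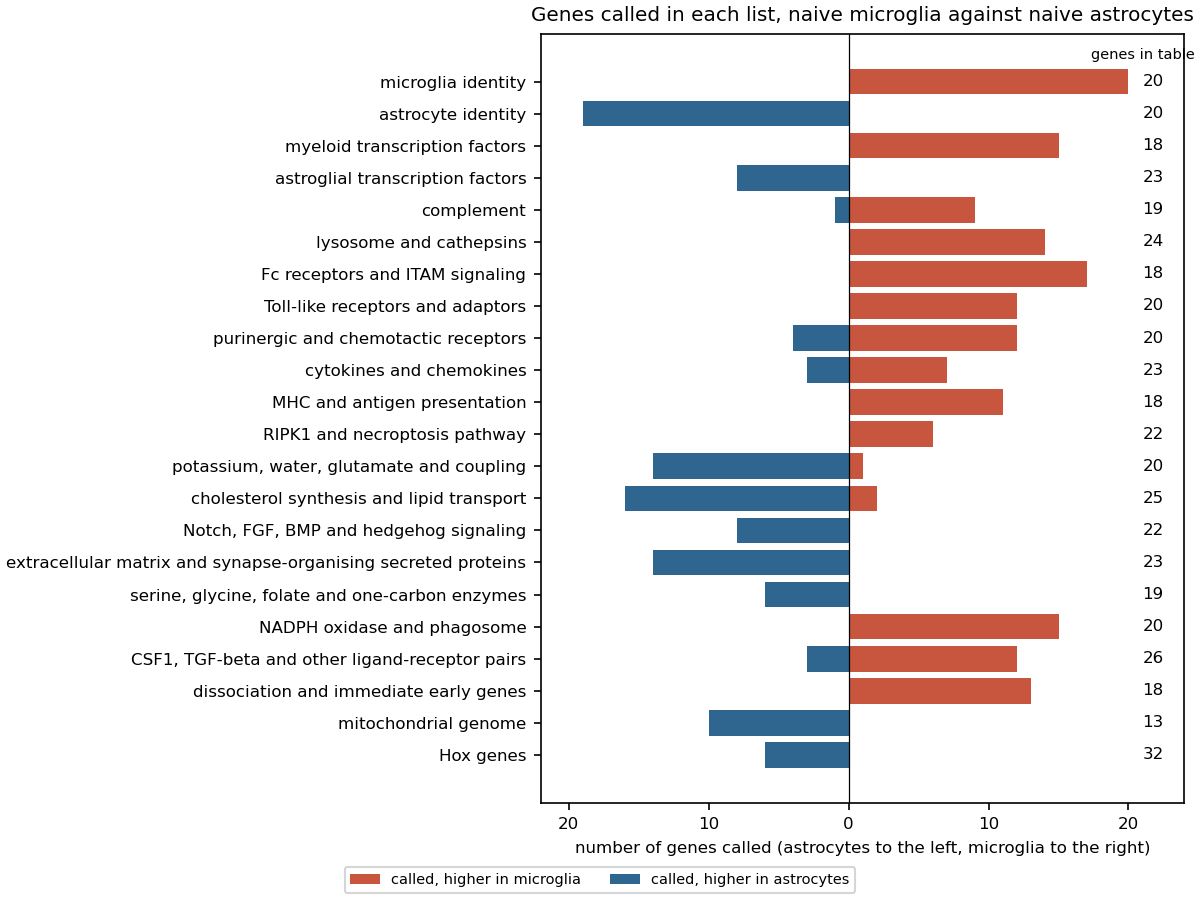
Bars give, for each gene list, the number of genes called higher in naive microglia (right, red) and in naive astrocytes (left, blue), with the number of its genes in the table at the right edge. Lists of receptors, lysosome and phagosome point right and those of ion transport, sterol synthesis, matrix and the mitochondrial genome point left, while purinergic receptors, cytokines and ligand-receptor pairs have bars on both sides.

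Closely related genes were compared within 23 pairs of one family. In 6 pairs the members were called in opposite directions, in 1 both were higher in microglia, in 3 both were higher in astrocytes, in 12 exactly 1 member was called and in 1 neither was. Genes of sugar uptake and of its first step were among the opposite pairs. Slc2a5, the fructose transporter GLUT5, was at 8.00, 8.39, 7.95 and 6.46 in microglia without signal in astrocytes, and Slc2a1, the glucose transporter GLUT1, was at 7.51, 6.30, 8.46 and 8.17 in astrocytes and 3.42 to 5.37 in microglia (-3.18 ± 0.610 SE, adjusted p = 0.0124, limma). The call of Slc2a1 was lost without microglia replicate 3 and astrocyte replicate 4 (adjusted p = 0.0931, limma). Hk2 was at 5.82 to 7.32 in microglia and Hk1 at 4.59 to 5.48 in astrocytes, where Hk2 did not exceed 0.25. The hexokinase split rests on an unstable call, as Hk1 was not called in 6 of the 8 fits without 1 library, all but those without microglia replicate 4 and without astrocyte replicate 2 (adjusted p = 0.0613 to 0.13).

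The other opposite pairs were the Src kinases Lyn and Fyn, the actin-bundling plastins Lcp1 and Pls3, the potassium channels Kcnk6 and Kcnk1, and Entpd1 and Entpd2. Fyn was not called without microglia replicate 2 or 4, or without astrocyte replicate 1, 3 or 4 (adjusted p = 0.0543 to 0.0959), and Kcnk6 was not called without microglia replicate 3 (0.051). Kcnk1 was at 8.44, 7.26, 9.34 and 8.61 in astrocytes and at most 0.81 in microglia, and Kcnk6 at 3.04 to 4.21 in microglia and 0.00, 1.86, 0.18 and 0.22 in astrocytes. Of the beta subunits of the sodium pump, Atp1b2 was called in astrocytes and Atp1b3 was not called. Ldhb, a lactate dehydrogenase subunit, was higher in astrocytes by a small margin (-1.35 ± 0.332 SE, adjusted p = 0.0412, limma). That call was lost in 7 of the 8 fits without 1 library, all but that without microglia replicate 4 (adjusted p = 0.0726 to 0.103), and with no-signal values set to 0 (0.0916). Ldha was at 6.46 to 7.84 and 6.68 to 7.99 and was not called. The tetraspanin Cd9 was higher in microglia by 3.10 ± 0.359 (SE, adjusted p = 0.000738, limma), and its relative Cd81 was at 11.93 to 13.32 and 11.38 to 12.32 and was not called.

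**Figure D4:**
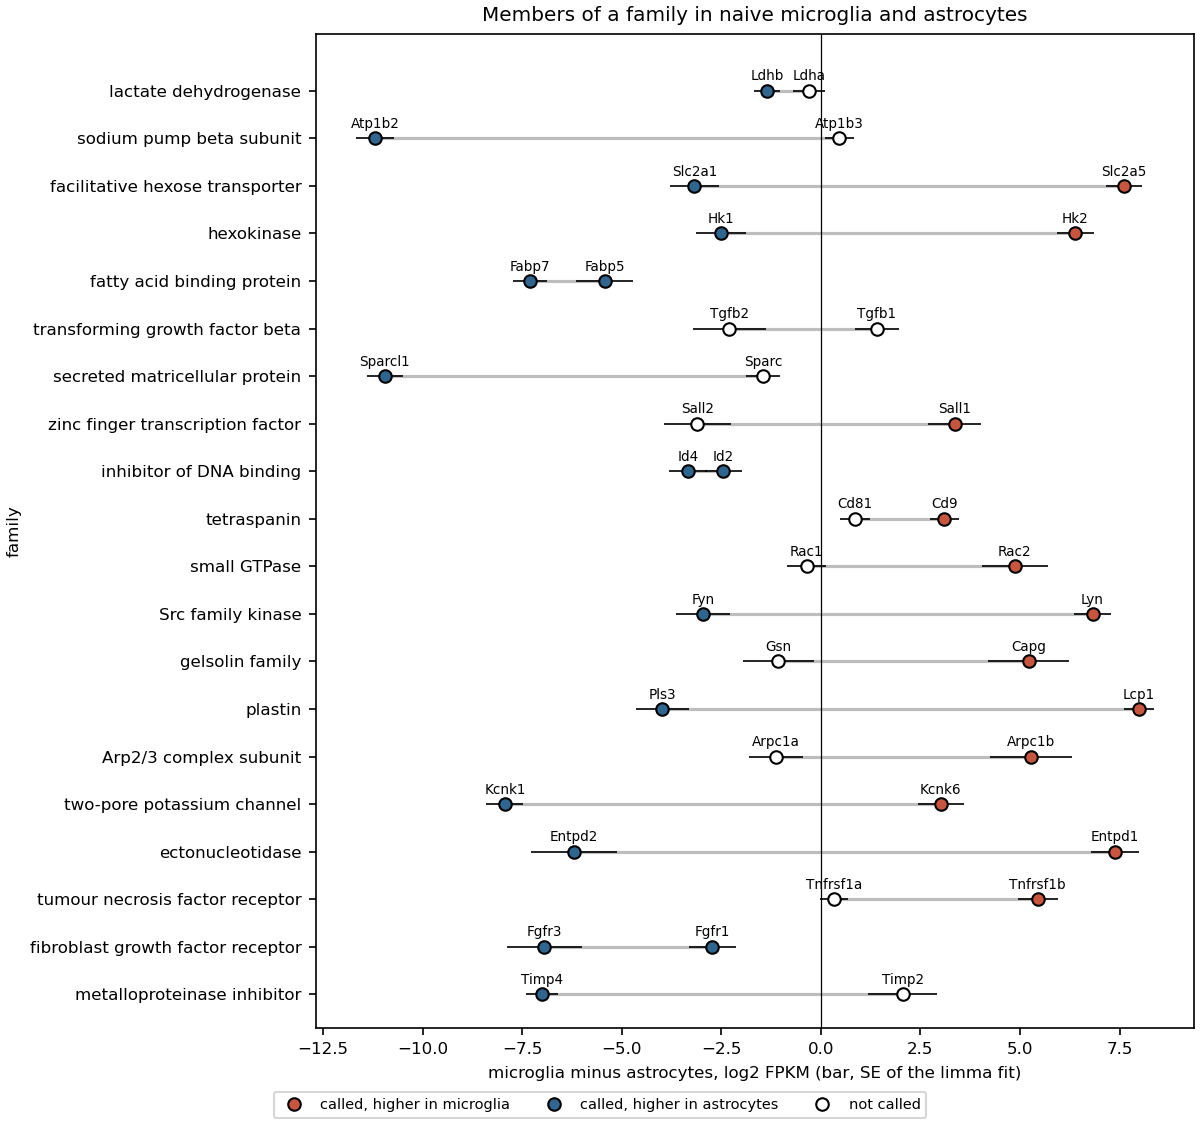
Points give the difference between naive microglia and astrocytes (log2 FPKM) for the 2 members of 20 of the family pairs, with bars for the SE of the limma fit, in red or blue where called and open where not. In 6 families, among them hexokinase (Hk2 and Hk1) and the hexose transporters (Slc2a5 and Slc2a1), the filled points lie on opposite sides of 0. The calls of Hk1, Fyn and Kcnk6 were lost in fits without 1 library, and those of Slc2a1 and Entpd2 without microglia replicate 3 and astrocyte replicate 4.

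Of 104 genes with a mean of at least 8 over the 8 libraries, 48 were not called, 26 were called higher in microglia and 30 higher in astrocytes. Those with the nearest means, chosen for that and given without a test, were Tmed10, Atp6v0c, Glul, Qk, Eif5a, Malat1, Dazap2, Tmem59, Saraf and Atraid. Tmem59 was at 8.71 to 9.52 in microglia and 8.84 to 9.00 in astrocytes, and Saraf, a regulator of calcium entry, at 7.98 to 8.60 and 8.07 to 8.92. Malat1, an abundant nuclear RNA, varied much more within each type, at 10.57 to 13.32 and 10.42 to 13.12. Qk was at 9.06, 7.41, 7.36 and 8.59 in microglia and 7.65, 9.06, 7.67 and 7.67 in astrocytes, so that 1 library of each type carried much of its spread.

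Markers of other cell types of the cord were read in the same libraries. Of 10 oligodendrocyte markers, 4, among them Mbp, Mobp and Cnp, were called higher in astrocytes, and the mean of the list ran from 1.20 to 1.69 in microglia and from 4.69 to 6.06 in astrocytes. Mbp, myelin basic protein, was at 11.73, 12.02, 13.93 and 13.01 in astrocytes and 2.15, 3.19, 3.09 and 2.07 in microglia, although other myelin genes were low or uneven: Mog was at 0.73, 0.01, 4.40 and 0.00 in astrocytes and Mag at 4.06, 0.35, 2.47 and 3.68. Of 10 neuron markers, 5 (Snap25, Tubb3, Nefl, Nefm and Stmn2) were called higher in astrocytes, where the mean of the list was 3.00 to 3.74 beside 0.17 to 0.47 in microglia, while Chat, of cholinergic neurons, had no signal in astrocytes. Tubb3 was not called without microglia replicate 1, 2 or 3, or without astrocyte replicate 1 or 4 (adjusted p = 0.0525 to 0.0699). Of the oligodendrocyte precursor markers, none of 8 was called. The part of RNA from oligodendrocytes and neurons in the astrocyte values was not tested.

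In microglia, 5 of 12 monocyte and neutrophil markers were called, S100a8, S100a9, Ngp, Camp and Chil3, most of them granule proteins of neutrophils. S100a8 was at 7.27, 7.85, 13.01 and 9.86 in microglia and 0.04, 2.78, 0.05 and 0.07 in astrocytes, and microglia replicate 3 had the highest mean of the list, 7.13 beside 2.40, 3.12 and 4.29. Ccr2, which defines inflammatory monocytes, had no signal in any microglia library, and Ly6c2 had signal in microglia replicate 3 alone, at 5.05. The count fell to 3 of 12 without microglia replicate 4, and likewise without astrocyte replicate 1, 3 or 4. Of border macrophage markers, Stab1 was called, at 5.55 to 7.60 in microglia, while Mrc1 and Lyve1 had no signal in any library. Among T and B cell markers, Cd79b was called in microglia (4.50 to 6.40) and Trac in astrocytes (3.96, 3.61, 5.07 and 1.14), the latter lost in 7 of the 8 fits without 1 library, all but that without astrocyte replicate 4.

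Red cell genes were uneven. Of 5 erythrocyte markers, 3 were called higher in astrocytes, and Hba-a1, an alpha globin, was at 8.48, 7.11, 10.16 and 10.92 in astrocytes and 3.90, 0.28, 0.66 and 6.52 in microglia. No erythrocyte marker was called without microglia replicate 2 or 3, or without astrocyte replicate 1, 3 or 4, and 1 without microglia replicate 1. Endothelial markers stood out in astrocyte replicate 4, where Cldn5, a tight junction protein, was at 7.81 beside 1.41, 0.00 and 0.83, and none of 10 was called. Of other types, 3 of 8 pericyte and fibroblast markers (Col1a1, Col1a2 and Myl9), 2 of 10 ependymal markers (Rarres2 and Nnat) and 1 of 5 Schwann cell markers (Cdh19) were called higher in astrocytes. The ependymal count fell to 1 in 7 of the 8 fits without 1 library, where Rarres2 was lost (adjusted p = 0.0747 to 0.107), all but that without astrocyte replicate 4.

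**Figure D5:**
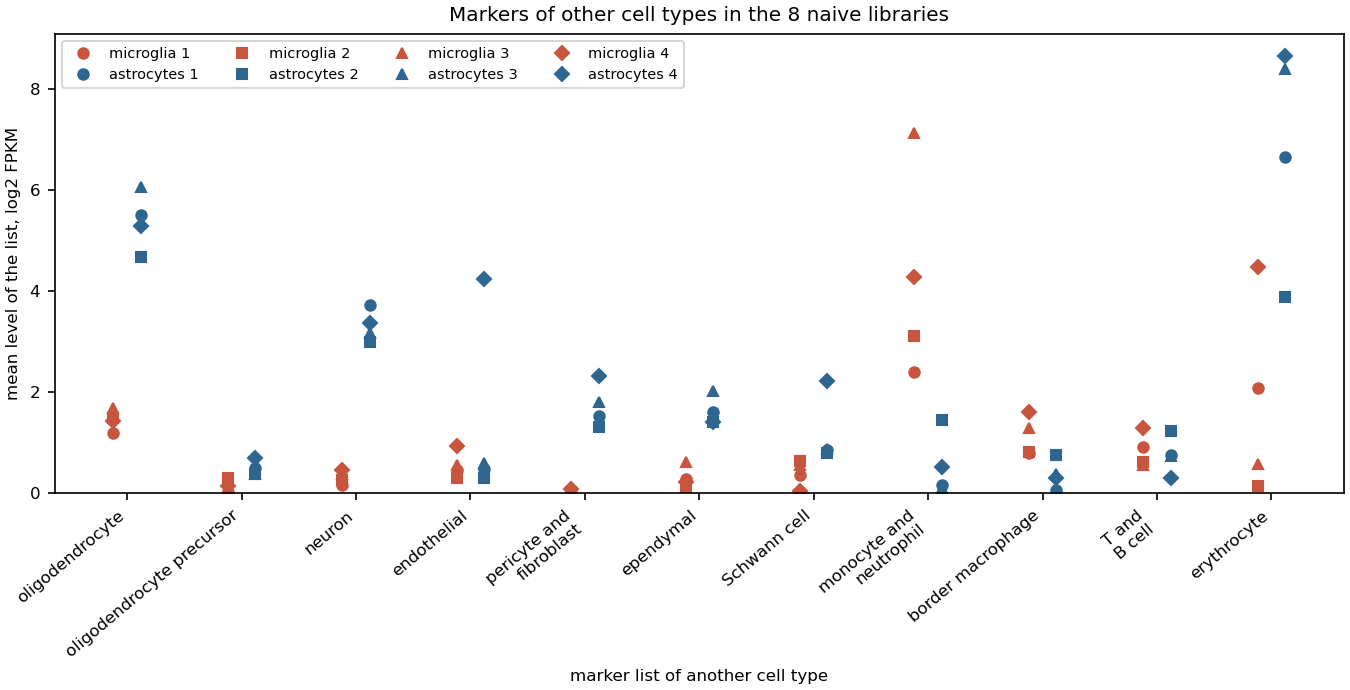
Points give the mean log2 FPKM of each marker list of another cell type in each of the 4 naive microglia (red) and 4 naive astrocyte (blue) libraries, with 1 shape for each replicate number. Oligodendrocyte, neuron and erythrocyte lists are higher in astrocytes, microglia replicate 3 leads the monocyte and neutrophil list at 7.13, and astrocyte replicate 4 leads the endothelial list at 4.25.

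The counts above were also taken without the libraries that stood apart. Without microglia replicate 3 and astrocyte replicate 4, 1659 genes of the table were called, 1582 of them also called with all 8 libraries and in the same direction. Without microglia replicate 4 and astrocyte replicate 2, which detected fewest genes of their types, 2703 were called, of which 2042 were shared. No shared gene changed direction. The microglia identity list kept 19 and the astrocyte identity list 18 calls in the first case.

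The same difference was read in mice with EAE given vehicle, 6 libraries of each cell type, which share no library with the naive comparison. In those libraries, 11.8% of 30139 genes tested were called in either direction, 7.07% higher in microglia and 4.78% higher in astrocytes. Of the 1223 genes called in naive microglia, 97.38% had the same sign and 65.25% were called in the same direction, and of the 1238 called in naive astrocytes, 96.12% and 62.20%. Among the 9051 genes not called in naive mice, the sign was shared by 72.52%, and 16.36% were called in the direction of the naive difference. In the 5 EAE mice given GSK'547, where 11.6% of 28301 genes were called (6.57% higher in microglia and 5.08% in astrocytes), 61.49% of the genes called in naive microglia and 66.56% of those called in naive astrocytes were called in the same direction.

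In all, 9 genes were called in opposite directions in naive and EAE-vehicle mice, 3 from the microglia side and 6 from the astrocyte side. Apoe had means of 11.18 ± 0.620 (SD, n = 4) in naive microglia and 13.92 ± 0.711 in naive astrocytes, and of 14.11 ± 0.492 (n = 6) and 11.62 ± 0.240 in EAE-vehicle mice. The cell type difference in naive mice minus that in EAE-vehicle mice was -5.24 ± 0.603 (SE, adjusted p = 2.37e-05, limma interaction over all 30 libraries). Hpgd, which degrades prostaglandins, had means of 7.67 ± 0.221 in naive microglia and 4.20 ± 1.05 in naive astrocytes, and of 2.92 ± 1.38 and 6.42 ± 0.698 in EAE-vehicle mice. Axl, Apoc1, Vcam1, Hacd2 and Tmed1 went the way of Apoe, higher in astrocytes of naive mice and in microglia of EAE-vehicle mice, and Irgm2 and Gimap6 the way of Hpgd. Of all 30952 genes, 304 had an adjusted p under 0.05 for that interaction, 180 of them among the genes called in naive mice. The naive difference is part of the interaction, so that share is no separate result. The 9 genes were likewise picked on the values that the interaction uses. These values are RNA levels of sorted cells, and what changed between naive and diseased mice besides the cells' own RNA was not tested.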

How the data were processed

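RNA was amplified from sorted spinal cord cells as poly(A) cDNA and sequenced on a DNBseq instrument. The authors quantified genes as FPKM in OmicSoft Array Studio and deposited log2 values. These are quantile-normalized across the 30 libraries: sorted, each column runs through identical values from 0 to 15.34. The aligner, the annotation release and the offset added before the logarithm are not given in the sources used here. Read counts cannot be had from such values, so no depth or counting interval is given. A gene without signal in a library was recognised by its place in the tied lowest stretch of that library.

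Naive microglia and astrocytes (4 libraries each) were compared with limma 3.58.1 in R 4.3.3 (lmFit, eBayes with trend) on the deposited log2 values, with no pseudocount added, over the 29445 of 30952 genes that varied, with Benjamini-Hochberg adjustment. For genes described singly an exact permutation test went over all 70 splits. EAE-vehicle and EAE-RIPK1 inhibitor libraries were fitted in the same way, and the interaction in 1 fit of 30 libraries. On simulated data with 200 shifted genes and the 29445 genes of the naive comparison, 5 of 67 shifts of 2 log2 units were called, 31 of 67 of 4 and 50 of 66 of 6, with no wrong direction. In these data 24 unshifted genes were also called, a larger share of all calls there than the cutoff of 0.05 aims at. With few genes shifted the adjustment is stricter than where 2463 are called, so these shares need not hold for the naive comparison. The study names a paired test, but the labels do not say whether same-numbered libraries of the 2 cell types come from the same mouse. The fit is therefore unpaired, and it ignores a pairing by mouse if there is one.

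The genes, lists and pairs were chosen with earlier results of these data known. Named are the 10 widest differences in each direction with signal in all 8 libraries, in each direction the 8 highest genes without signal in the other type, leading and opposing genes of each list, family pairs, sort genes, Ripk1, Ripk3 and Mlkl, Hox genes, 10 genes of like level with a mean of at least 8, and calls that turned in EAE. Other list genes were named after their values were seen. Fits without 2 libraries at a time were added after seeing the data. Some genes that these rules cover are not reported here, and counts and medians include them.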

Additional observations from a re-analysis of the deposited data

Results flagged for a closer look

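Of 148 groups of 4 libraries examined for a library apart from the other 3, 8 had one, and chance alone gives about 1 in 20. Astrocyte replicate 2 was apart for Qk, at 9.06 beside 7.65 to 7.67, for Eif5a, a translation factor, at 8.67 beside 7.82 to 7.91, for the mean of the astrocyte identity genes, at 8.39 beside 9.29 to 9.45, and for the mean of the RIPK1 and necroptosis genes, at 2.35 beside 1.93 to 1.96. Astrocyte replicate 1 was apart for Glul, at 8.57 beside 8.81 to 8.85. Astrocyte replicate 4 was apart for the mean of the endothelial markers, at 4.25 beside 0.30 to 0.60, and of the Schwann cell markers, at 2.23 beside 0.80 to 0.88. Microglia replicate 2 was apart for the dissociation and immediate early genes, at 6.91 beside 4.89 to 5.17.

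In 9 genes the difference between the cell types turned from naive to EAE-vehicle mice. They were picked as called in opposite directions, and the interaction was tested on the same values. Its p-values are thus no separate support. The naive difference minus the EAE-vehicle difference was 5.68 for Irgm2 (adjusted p = 3.64e-05, limma interaction), 8.03 for Gimap6 (0.0022) and 6.98 for Hpgd (2.37e-05). It was -3.97 for Hacd2 (0.000739), -7.92 for Vcam1 (0.00183), -5.43 for Apoc1 (0.00771), -5.24 for Apoe (2.37e-05), -5.15 for Axl (0.00942) and -3.85 for Tmed1 (0.0413). Of these, Irgm2, Hpgd and Tmed1 were also called in the opposite direction in EAE mice given GSK'547.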

How the results depend on the processing

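Depth is unknown. With 4 libraries a group most simulated differences of 2 log2 units were missed, in a simulation with fewer differing genes than were called here. That simulation also called 24 unshifted genes. The 2463 genes called (1224 higher in microglia, 1239 in astrocytes) became 4262 (2042 and 2220) with library quality weights, 4965 (2587 and 2378) at the cutoff of the study, an unadjusted p under 0.05, and 1087 (527 and 560) without genes marked as confounded. With genes of a mean of at least 1, 1844 were called higher in microglia. Leaving out 1 library gave 1840 to 2785 genes in all, 855 to 1286 in microglia and 985 to 1499 in astrocytes. With a replicate block, 1762 genes were called (852 and 910), 1731 of them shared in direction with the fit without it. Same-numbered libraries had deviations that correlated at 0.0429, -0.0431, 0.0985 and -0.0144. Such correlations cannot show which libraries share a mouse, so the pairing by number is unknown and both fits are given. With the block, 38 named genes lost their call, among them Ripk1 (adjusted p = 0.142), Fyn (0.123), Hoxb5 (0.122), Dhcr7 (0.116), Ldhb (0.106), H2-K1 (0.0968), Fgfr1 (0.096), Slc12a2 (0.0949), Cst3 (0.0896), Trac (0.0859), Hk1 (0.0835), Rarres2 (0.0749), Cflar (0.0742), Slc1a3 (0.0676), Cx3cl1 (0.0673), Lfng (0.0654), Id1 (0.0647), Dusp1 (0.0635), Col1a1 (0.0619), Kcnk6 (0.0595), Chil3 (0.0582), Tubb3 (0.0582) and Id2 (0.0579). Leaving out 1 library lost the call of 47 named genes in at least 1 of 8 fits, and of 30 in at least 5. Counts under the other alternatives stayed within 1.5 times. The share of naive calls with the same direction was 96.75% in EAE-vehicle mice and 97.81% in EAE mice given GSK'547. Of 6325 values of 309 named genes called, 5958 kept direction and call, 367 lost the call and 0 turned direction. Of 1386 list counts, 106 moved by over 1.5 times.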
